A study of Mus musculus with 48 samples.

Results

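E-CAD+ 3NG- cells driven by the MKOS cassette were compared with E-CAD+ 3NG- cells driven by the OKMS cassette, with 3 RNA-seq libraries each, and these 6 of the 48 libraries of the series were chosen by their labels alone. The name 3NG- stands for cells sorted as low in the fibroblast surface protein CD44, high in the adhesion molecule ICAM1, and negative for a Nanog-GFP reporter. Both groups were sorted on day 10 of doxycycline treatment from mouse embryonic fibroblasts (MEFs), in medium with LIF and vitamin C, with E-cadherin (E-CAD) on the surface. The MKOS and OKMS groups both carried the Nanog-GFP reporter of TNG embryonic stem cells (ESCs), a CAG promoter-driven rtTA, and an mOrange-marked doxycycline-inducible cassette in an intron of Sp3. They differed in the cassette, named by the order of c-Myc, Klf4, Oct4 (Pou5f1), and Sox2. The MKOS cassette holds the longer Klf4 protein, and OKMS holds a Klf4 that lacks N-terminal residues. Each cassette came from targeted TNG ESCs, and MEFs of mid-gestation chimeric embryos were cultured with an excess of wild-type MEFs. The order of the factors, the Klf4 form, and the targeted cells therefore cannot be told apart in this comparison. Nothing in the labels says whether replicates were separate cultures, so each p-value measures the spread between libraries, which may be technical.

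Reprogramming replaces the fibroblast program with the pluripotency network, in which Oct4, Sox2, Nanog, Esrrb, Tfcp2l1, and their partners activate each other and themselves. Before this network is active, cells pass through a mesenchymal-to-epithelial transition, which E-CAD marks, and lose matrix and contractile genes. The 3NG- cells compared here had E-CAD on their surface and no visible Nanog-GFP, and the comparison asks whether the 2 cassettes reach that gate with the same gene expression.

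The libraries held 4200870 to 11206126 reads on transcripts and detected 12911 to 14677 of 24264 annotated transcripts. Levels are given as CPM, the reads of a transcript scaled to a common total of transcript reads, and 3 reads, the limit that a count of 0 allows, stood at 0.268 to 0.714 CPM over the 6 libraries, counting error only. Reads marked the 5' end of transcripts, so a level does not depend on transcript length. MEF values are those of the MKOS and OKMS lines, 2 libraries each, and ESC values those of TNG MKOS and TNG OKMS ESCs, 2 libraries each. Wild-type MEFs, E14 ESCs, and TNG ESCs without a cassette entered the joint fit and neither of these means. OKMS replicate 3 stood apart from the other OKMS libraries. Its distance (1 minus Pearson r of log2 CPM across 15630 genes) was 0.0927 from OKMS replicate 1 and 0.118 from OKMS replicate 2, against 0.0577 between these. OKMS replicate 1 lay nearer to each MKOS library (0.0867 to 0.0912) than to OKMS replicate 3. The same held for OKMS replicate 2 (0.107 to 0.112). The mean distance between cassettes was 0.107 and that within cassettes 0.0737. No arrangement of the labels, of 20, gave a larger difference than 0.0334 (exact permutation test, one-sided p = 0.1, the smallest p this design allows).

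The gate's own markers gave a mixed picture. Cdh1, which encodes E-CAD, stood at 116, 178, and 147 CPM in MKOS and at 144, 137, and 147 CPM in OKMS (log2 fold change MKOS minus OKMS -0.08 ± 0.39 SE, adjusted p = 0.978). Epcam, another epithelial surface gene, named after its values were seen, was present in all 6 libraries at 46.3 to 83.7 CPM. Cd44 was low in MKOS at 30.9, 22.0, and 21.1 CPM. In OKMS it was 135 and 125 CPM in replicates 1 and 2 and 9.18 CPM in replicate 3, so OKMS replicates 1 and 2 lay within the MEF range of 104 to 362 CPM, although the gate took cells low in CD44 protein. The Cd44 difference missed the threshold (-1.96 ± 0.71, adjusted p = 0.156) and passed it without OKMS replicate 3 (-2.48, adjusted p = 0.0463). Icam1 transcript was 12.4, 17.2, and 20.4 CPM in MKOS and 12.8, 23.8, and 5.18 CPM in OKMS, and did not pass (0.14 ± 0.56, adjusted p = 0.972). Nanog transcript was detected in all of these Nanog-GFP- libraries, at 22.3, 36.4, and 75.7 CPM in MKOS and 20.3, 17.9, and 45.0 CPM in OKMS (0.55 ± 0.46, adjusted p = 0.647), against 81.0 CPM in ESCs and 0 reads in the 4 MEF libraries of the MKOS and OKMS lines. In both cassettes Nanog was highest in replicate 3. The fibroblast markers Thy1, Pdgfra, Pdgfrb, and Col3a1 were each lower than their MEF mean in all 6 libraries.

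Of 15630 genes tested, 339 (2.17% of those tested) differed at an adjusted p of at most 0.05. Of these, 216 (1.38%) were higher in MKOS and 123 (0.787%) were higher in OKMS. The median log2 fold change of all genes was 0.01, and 50.5% of genes had a fold change above 0. The MKOS and OKMS values did not overlap with MKOS higher in 15.3% of genes tested and with OKMS higher in 6.44%. The counts depended on single libraries. Higher-in-MKOS genes numbered 134 without MKOS replicate 2, 141 without MKOS replicate 3, 125 without OKMS replicate 1, and 90 without OKMS replicate 2. Higher-in-OKMS genes numbered 65, 46, and 73 without MKOS replicates 1, 2, and 3, and 72 and 63 without OKMS replicates 1 and 2. Without OKMS replicate 3, the library that stood apart, 161 and 110 genes passed, of which 129 and 84 were among the 216 and 123.

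**Figure D1:**
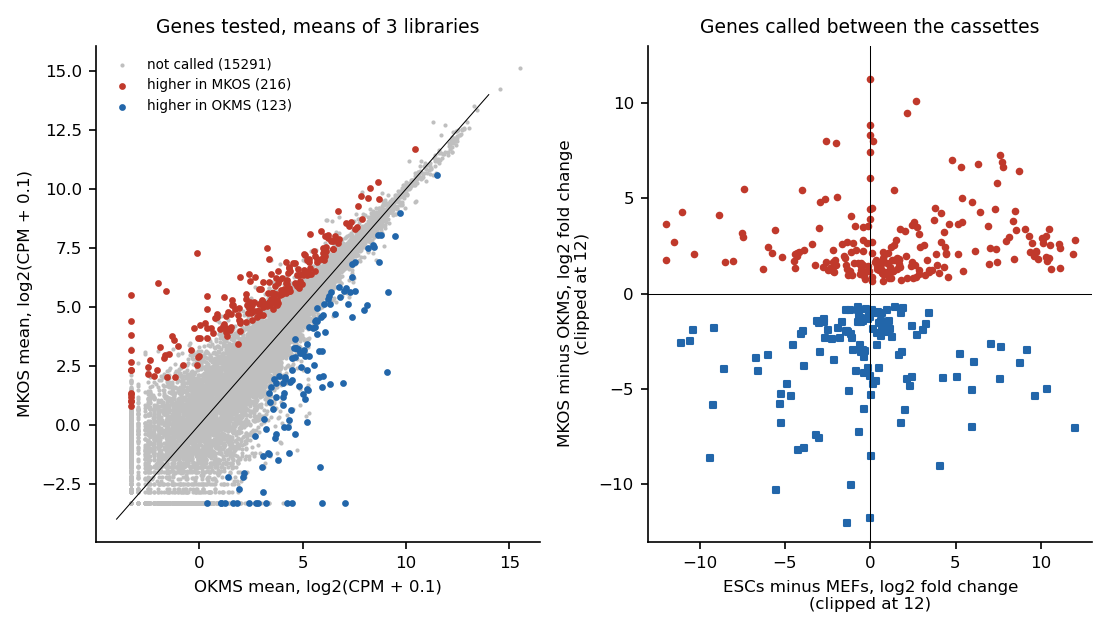
The left panel plots the mean CPM of 3 MKOS libraries against that of 3 OKMS libraries for 15630 genes, both axes as log2(CPM + 0.1), with the 216 genes higher in MKOS in red, the 123 higher in OKMS in blue, and the line of equal level in black. The right panel plots the 339 called genes by the log2 fold change of ESCs over MEFs (horizontal) and MKOS minus OKMS (vertical), both clipped at 12, and shows called genes of both signs on both sides of the ESC-to-MEF axis.

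The list of 20 naive pluripotency transcription factor genes also holds Tcl1, which is not a transcription factor. Of the 20, 6 rose in MKOS over OKMS and none in OKMS (30% against 1.38% of all genes). A fold change above 0 was seen in 19, where 50.5% of all genes had one, and the median log2 fold change of the list was 1.16. The 6 were Tbx3, Esrrb, Tcl1, Zfp42, Tfcp2l1, and Mybl2. Their number was 4 without MKOS replicate 3 or without OKMS replicate 1. Esrrb, an orphan nuclear receptor of the core network, was 79.5, 75.1, and 119 CPM in MKOS and 18.03, 17.9, and 27.1 CPM in OKMS. Every MKOS library exceeded every OKMS library, as in 15.3% of all genes tested, and the difference was 4.34-fold on average (1.99 ± 0.38, adjusted p = 0.00153). Zfp42 (Rex1), a zinc finger gene widely used as a mark of the naive state, was 484, 440, and 694 CPM in MKOS and 78.6, 62.1, and 171 CPM in OKMS (2.24 ± 0.43, adjusted p = 0.00153). Without OKMS replicate 3 the Zfp42 difference was 2.83. Both of these were higher in OKMS replicate 3 than in the other OKMS libraries and still below all MKOS libraries. Tcl1, an activator of AKT signaling, was 69.7, 60.9, and 66.8 CPM against 12.7, 5.48, and 7.06 CPM (2.81 ± 0.53, adjusted p = 0.00153). Tbx3, a T-box factor that sustains self-renewal in ESCs, was 30.7, 47.7, and 49.5 CPM in MKOS and 3.21, 2.14, and 1.18 CPM in OKMS (4.07 ± 0.52, adjusted p = 3.93e-06). The Tbx3 mean in MKOS, 42.6 CPM, also lay above the ESC mean of 17.5 CPM and the MEF mean of 23.4 CPM. MKOS replicate 1 lay within the ESC range of 1.56 to 31.85 CPM and the MEF range of 18.6 to 31.0 CPM.

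Reads counted at the genes of the reprogramming factors differed in 1 of 4 cases. Pou5f1 was 738, 756, and 895 CPM in MKOS and 225, 154, and 475 CPM in OKMS, 2.80-fold higher (1.35 ± 0.34, adjusted p = 0.0222). The Pou5f1 call rested on all libraries but OKMS replicate 3, without which the difference was 1.97. Adjusted p was 0.0514, 0.0566, and 0.0751 without MKOS replicates 1, 2, and 3, 0.131 and 0.195 without OKMS replicates 1 and 2, and 0.0890 with the 6 libraries fitted alone. Sox2 was 87.8, 104, and 162 CPM in MKOS and 54.4, 34.3, and 82.9 CPM in OKMS, and missed the threshold (0.91 ± 0.37, adjusted p = 0.222). Its groups did not overlap, as in 15.3% of all genes tested with MKOS higher. Klf4 was 27.0, 34.8, and 38.8 CPM against 43.0, 35.9, and 16.5 CPM (-0.05 ± 0.36, adjusted p = 0.999), and Myc was 32.2, 41.6, and 41.9 CPM against 63.2, 59.8, and 13.7 CPM (-0.36 ± 0.44, adjusted p = 0.791). Both were lowest in OKMS replicate 3. Counts do not separate reads of the endogenous genes from reads of the cassette, whose transcript starts in vector sequence. These levels are therefore no measure of how much of each factor the cassette delivered. Of 20 KLF and SP factors, Klf8 alone passed, at 12.6, 16.2, and 23.1 CPM in MKOS and 2.41, 1.43, and 3.30 CPM in OKMS (2.72 ± 0.77, adjusted p = 0.0491), and the call was lost without any 1 of the 6 libraries (adjusted p 0.0739 to 0.205).

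**Figure D2:**
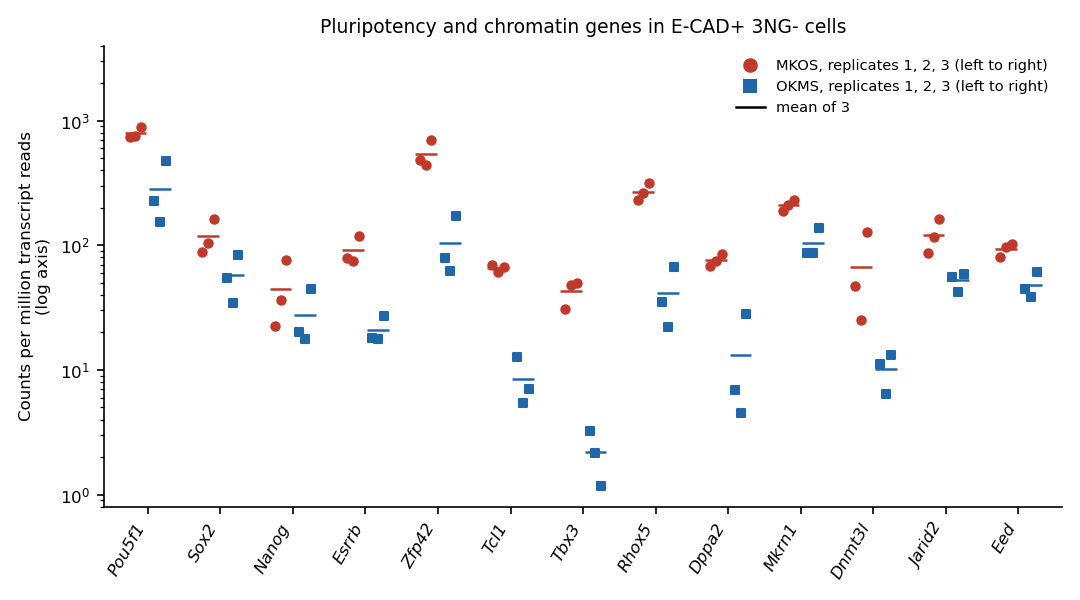
CPM (log axis) of 13 pluripotency and chromatin genes in each of the 3 MKOS (red circles) and 3 OKMS (blue squares) libraries, with replicates 1 to 3 from left to right and the mean as a bar. MKOS and OKMS points overlap for Nanog and are apart for the other 12 genes, as in 15.3% of all genes tested with MKOS higher.

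Late pluripotency genes come on near the end of reprogramming. Of 25, 5 rose in MKOS (20%, against 1.38% of all genes) and none in OKMS, and the median log2 fold change was 0.96. The 5 were Rhox5, Tcl1, Dppa2, Mkrn1, and Fbxo15, and Tcl1 is counted in the naive list as well. Rhox5, an X-linked homeobox gene, was 231, 264, and 314 CPM in MKOS and 34.8, 22.1, and 67.1 CPM in OKMS (2.57 ± 0.45, adjusted p = 0.000578). The MKOS values exceeded the ESC range of 12.1 to 95.05 CPM. Dppa2, a chromatin-associated gene of early embryos, was 67.9, 74.9, and 84.4 CPM in MKOS, and 6.87, 4.52, and 28.0 CPM in OKMS (2.42 ± 0.51, adjusted p = 0.00471). Mkrn1, a ubiquitin ligase gene, was 186, 211, and 230 CPM against 86.1, 85.9, and 138 CPM (0.89 ± 0.25, adjusted p = 0.0441). OKMS replicate 3 was the highest OKMS library for each of the 3. The list's count was 9 without OKMS replicate 3, 3 without MKOS replicate 3, and 2 without OKMS replicate 1 or without OKMS replicate 2. Dppa2 lost its call without OKMS replicates 1 (adjusted p = 0.0589) or 2 (0.0599), and its difference was 3.60 without OKMS replicate 3. The call of Mkrn1 was lost without any 1 library other than OKMS replicate 3 (0.0853 to 0.214).

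Among 24 tested genes of DNA methylation and chromatin, 3 rose in MKOS and none in OKMS (12.5% against 1.38% of all genes). Dnmt3l, a cofactor of the de novo DNA methyltransferases, was 47.0, 25.2, and 128 CPM in MKOS and 11.2, 6.43, and 13.2 CPM in OKMS (2.55 ± 0.55, adjusted p = 0.00605). Eed, a core subunit of Polycomb repressive complex 2, was 79.7, 96.6, and 101.4 CPM against 44.2, 38.6, and 61.2 CPM (0.82 ± 0.23, adjusted p = 0.0452). Jarid2, an accessory subunit of that complex, was 86.0, 116, and 161 CPM against 56.0, 42.4, and 58.4 CPM (1.08 ± 0.30, adjusted p = 0.0422). The groups did not overlap in any of the 3, as in 15.3% of all genes tested with MKOS higher. This adds little to the calls, since none of the 216 genes called higher in MKOS had a library inside the other cassette's range. Each of these calls depended on single libraries. Dnmt3l lost it without MKOS replicate 3 (1.73, adjusted p = 0.131) or OKMS replicate 2 (0.0608), Jarid2 without any 1 library other than MKOS replicate 1 (0.0585 to 0.237), and Eed without any 1 library other than OKMS replicate 3 (0.0739 to 0.238). Of the list, 1 member passed without MKOS replicate 2 or OKMS replicate 1, and 0 passed without MKOS replicate 3 or OKMS replicate 2. Bmp4, a signal that acts with LIF to hold ESCs undifferentiated, was the only called gene of 27 in the Nodal and LIF list, at 40.9, 39.5, and 31.8 CPM in MKOS and 7.14, 2.62, and 6.59 CPM in OKMS (2.64 ± 0.55, adjusted p = 0.00420, and 0.0523 without OKMS replicate 2).

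Of 43 fibroblast and matrix genes, 7 rose in MKOS (16.3%, against 1.38% of all genes) and none in OKMS. A fold change above 0 was seen in 37, where 50.5% of all genes had one, and the median log2 fold change was 1.28. The summed level of the 43 genes was 5836, 3166, and 2980 CPM in MKOS and 1805, 1650, and 941 CPM in OKMS, against 15565 to 19124 CPM in MEFs and 367 to 573 CPM in ESCs. Both cassettes thus lay between the MEF and ESC ranges, and no MKOS library fell to the OKMS level. MKOS replicate 1 held the highest sum and OKMS replicate 3 the lowest. Col1a2, a chain of type I collagen, was 399, 213, and 189 CPM in MKOS and 90.9, 97.6, and 33.7 CPM in OKMS (1.76 ± 0.44, adjusted p = 0.0217). Pcolce, an enhancer of procollagen processing, was 193, 159, and 147 CPM against 58.7, 67.4, and 14.8 CPM (1.72 ± 0.38, adjusted p = 0.00785). Bgn, a small matrix proteoglycan, was 264, 114, and 80.9 CPM against 40.1, 46.4, and 15.3 CPM (2.08 ± 0.47, adjusted p = 0.00785). S100a4, Timp2, and Col5a2 were also called. The count of called members was 1 without MKOS replicate 1, 4 without MKOS replicate 2, 3 without OKMS replicate 1 or without OKMS replicate 2, and 2 without OKMS replicate 3. Without MKOS replicate 1, the Bgn difference was 1.37, Bgn and Col1a2 had adjusted p of 0.156 and 0.188, and without OKMS replicate 3 Bgn, Pcolce, and Col1a2 had 0.0648, 0.0656, and 0.135. Col1a2 also missed without OKMS replicate 1 (0.0573).

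Fibroblasts were part of the culture, so single fibroblast markers, picked after their values were seen, are given as well. Thy1, a fibroblast surface gene, was 30.8, 8.97, and 27.8 CPM in MKOS and 20.2, 15.9, and 8.95 CPM in OKMS. Pdgfra, a growth factor receptor of fibroblasts, was 0.223, 0.315, and 5.94 CPM against 0.892, 2.62, and 4.71 CPM. Dcn, a matrix proteoglycan, was 54.5, 19.5, and 49.0 CPM against 12.05, 11.2, and 6.59 CPM (1.92 ± 0.66, adjusted p = 0.128). Lum, a related proteoglycan, was 77.4 CPM in MKOS replicate 3 and 0.787 to 6.59 CPM in the other 5 libraries. Thy1 and Pdgfra values of the cassettes overlapped, whereas those of Dcn did not, as in 15.3% of all genes tested with MKOS higher. Both groups were sorted as E-CAD+ and low in CD44, whereas MEFs averaged 0.283 CPM of Cdh1 and 210 CPM of Cd44. The part of admixed fibroblasts in the matrix difference was not tested, and in these bulk samples fewer cells of a type and less RNA per cell cannot be told apart.

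Of 43 actin cytoskeleton and contractile genes, 3 rose in MKOS (6.98%, against 1.38% of all genes) and none in OKMS. A fold change above 0 was seen in 39, where 50.5% of all genes had one, and the median was 0.55. Tpm2, a tropomyosin, was 260, 124, and 56.7 CPM in MKOS and 41.2, 29.8, and 32.5 CPM in OKMS (1.99 ± 0.47, adjusted p = 0.0135). Lasp1, an actin-binding scaffold, was 115, 121, and 159 CPM against 68.8, 57.4, and 28.3 CPM (1.23 ± 0.26, adjusted p = 0.00471). Myo1c, a membrane-linked myosin, was 60.4, 65.6, and 42.6 CPM against 26.2, 25.9, and 8.95 CPM (1.35 ± 0.32, adjusted p = 0.0127). None of the 43 passed without OKMS replicate 3 (Lasp1 0.0579, Myo1c 0.108, and Tpm2 0.0515). The count was 1 without MKOS replicate 1 and 2 without MKOS replicate 2 or OKMS replicate 2. Without MKOS replicate 1 the Tpm2 difference was 1.23 (adjusted p = 0.23). Ctgf, a secreted target of TGF-beta and YAP signaling, was 170, 92.1, and 38.1 CPM against 26.9, 19.04, and 14.8 CPM (2.20 ± 0.53, adjusted p = 0.0140). It missed the threshold without MKOS replicate 1 (1.53, adjusted p = 0.181) and without OKMS replicates 2 or 3 (0.0722 each). Ctgf was among the called 2 of 20 genes of the TGF-beta list (10%, against 1.38% of all genes). That list had 0 called without MKOS replicate 1, 4 without MKOS replicate 3, and 1 without OKMS replicate 2 or OKMS replicate 3.

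**Figure D3:**
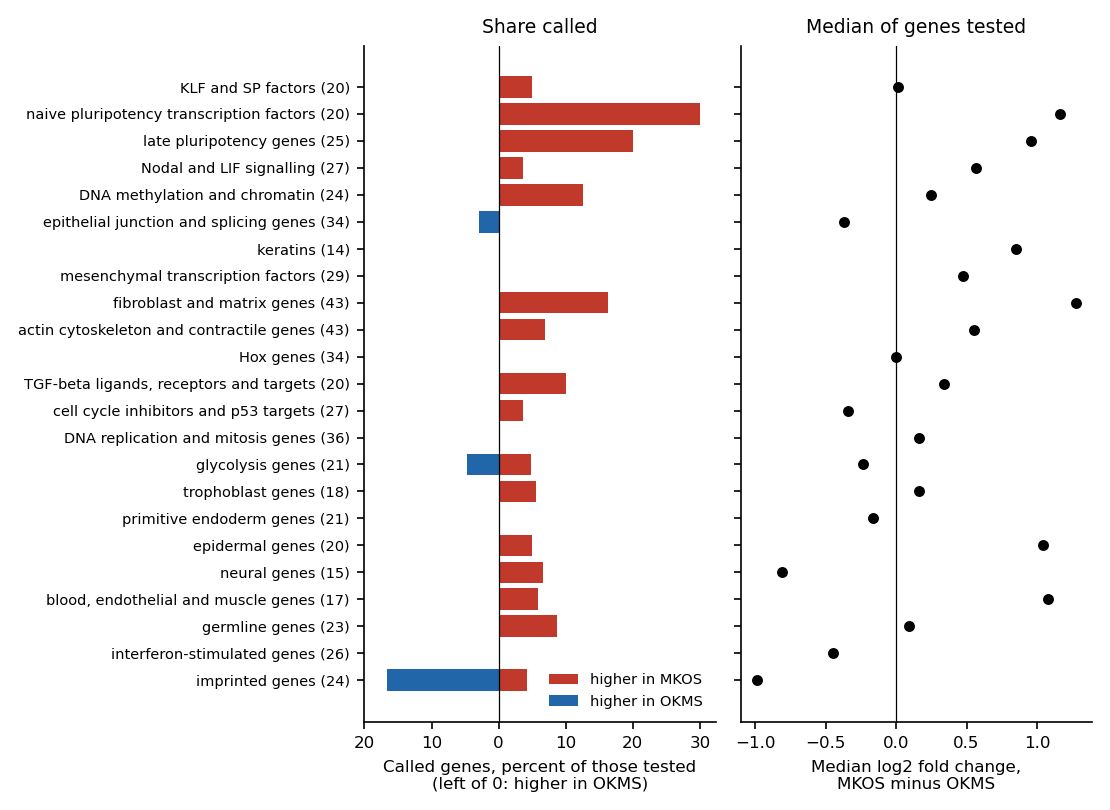
For 23 gene lists (number of genes tested in parentheses), the left panel gives the percent called higher in MKOS (red, right of 0) and higher in OKMS (blue, left of 0), and the right panel the median log2 fold change MKOS minus OKMS, with genes at 0 reads in 1 cassette set at the bound that 3 reads allow. Naive pluripotency factors had the highest share higher in MKOS, at 30%, and imprinted genes the highest share higher in OKMS, at 16.7%.

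Imprinted genes are expressed mainly from the maternal or the paternal allele. Of 24 tested, 4 rose in OKMS (16.7% against 0.787% of all genes) and 1 in MKOS, and the median log2 fold change was -0.99. Meg3, a maternally expressed noncoding RNA of the Dlk1-Dio3 domain, was 52.5, 46.6, and 65.6 CPM in MKOS and 159, 141, and 116 CPM in OKMS (-1.46 ± 0.33, adjusted p = 0.00785). H19, a maternally expressed noncoding RNA next to Igf2, was 46.8, 31.0, and 70.1 CPM against 166, 163, and 143 CPM (-1.80 ± 0.47, adjusted p = 0.0271). Nnat, a paternally expressed gene of neural and endocrine cells, was 0.558, 0, and 0.457 CPM against 10.98, 19.3, and 30.6 CPM (-5.85 ± 0.98, adjusted p = 0.000371). Peg3, a paternally expressed zinc finger gene named after its values were seen, was 12.51, 5.04, and 6.74 CPM against 20.6, 20.7, and 46.1 CPM (-1.95 ± 0.55, adjusted p = 0.0494). The Peg3 call was lost without any 1 library other than MKOS replicate 1 (0.0564 to 0.258) and with the 6 libraries fitted alone (0.0646). The 4 thus included genes expressed from either parental allele. In each the cassettes did not overlap, as was so for 6.44% of all genes tested with OKMS higher. Phlda2, a maternally expressed gene that restrains placental growth, went the other way, at 86.2, 98.7, and 48.3 CPM in MKOS and 1.70, 5.95, and 3.77 CPM in OKMS (4.32 ± 0.81, adjusted p = 0.00147). The count higher in OKMS was 1 without MKOS replicate 2 and 2 without OKMS replicate 1 or without OKMS replicate 2. H19 missed the threshold without any 1 of MKOS replicates 1 and 2 and OKMS replicates 1 and 2 (0.0683 to 0.168), and Meg3 without MKOS replicate 2 (0.0651). H19 and Nnat already differed in this direction in the MEFs of the lines. H19 was 33.6 and 31.2 CPM in MKOS MEFs and 2730 and 3554 CPM in OKMS MEFs (-6.53 ± 0.70, adjusted p = 1.85e-07). Nnat was 1.43 and 1.33 CPM against 83.3 and 91.0 CPM (-5.88 ± 1.10, adjusted p = 0.00990).

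Of other lists, few members passed, where 1.38% of all genes tested were called higher in MKOS and 0.787% higher in OKMS. Hk1, the hexokinase of most tissues, rose in MKOS at 36.3, 68.3, and 50.8 CPM against 11.7, 17.9, and 16.5 CPM (1.63 ± 0.37, adjusted p = 0.00878). Ldhb, the lactate dehydrogenase subunit that favors lactate use, rose in OKMS at 150, 146, and 255 CPM against 39.8, 34.5, and 77.9 CPM (-2.00 ± 0.49, adjusted p = 0.0182), and these were the called 2 of 21 glycolysis genes. Hk1 missed without MKOS replicate 2 (0.0760) or OKMS replicate 1 (0.0817), and Ldhb without MKOS replicates 1 or 2 or OKMS replicate 3 (0.0960 to 0.125). Rab25, a small GTPase of epithelial membrane traffic, was the called 1 of 34 epithelial junction and splicing genes and was higher in OKMS, at 74.4, 60.5, and 33.2 CPM against 3.80, 6.45, and 15.9 CPM (-2.82 ± 0.68, adjusted p = 0.0157). It missed without MKOS replicates 1 or 2 or OKMS replicates 1 or 2 (0.0543 to 0.114), and without MKOS replicate 3 the Rab25 difference was -3.55. The list of 27 cell cycle inhibitors and p53 targets also holds Ccnd3, a G1 cyclin, and 9 of its genes had a fold change above 0. Ccnd3 alone was called, at 74.2, 88.3, and 85.4 CPM in MKOS against 45.7, 32.4, and 33.9 CPM (1.02 ± 0.26, adjusted p = 0.0225). It missed without MKOS replicates 2 or 3 or OKMS replicates 2 or 3 (0.0619 to 0.124).

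No member was called among 14 keratins, 29 mesenchymal transcription factors, 34 Hox genes, 36 DNA replication and mitosis genes, 21 primitive endoderm genes, 26 interferon-stimulated genes, and 6 sex-linked genes. In each, the member with the smallest p is given, which need not stand for its list. Krt42, a keratin, was 20.9, 21.1, and 8.57 CPM in MKOS and 0.625, 1.90, and 1.65 CPM in OKMS (3.57 ± 1.09, adjusted p = 0.0781). Jun, an AP-1 factor, was 11.8, 11.5, and 15.3 CPM against 27.7, 45.0, and 24.01 CPM (-1.44 ± 0.52, adjusted p = 0.153). Ccnb2, a mitotic cyclin, was 110, 115, and 123 CPM against 53.1, 53.8, and 95.6 CPM (0.65 ± 0.25, adjusted p = 0.2004) and passed without OKMS replicate 3 (1.02, adjusted p = 0.0378). Hoxa11 was 4.02 and 5.04 CPM in MKOS replicates 1 and 2 and at most 0.235 CPM in the other 4 libraries (adjusted p = 0.132). Oas1a, an interferon-induced sensor of RNA, was 3.69, 8.97, and 16.4 CPM against 1.96, 0, and 0.706 CPM (adjusted p = 0.137). Foxq1, a forkhead gene, had no read in MKOS and 2.23, 1.19, and 10.1 CPM in OKMS (adjusted p = 0.105). Krt42 and Ccnb2 went with most of their lists, with 8 of 14 and 30 of 36 fold changes above 0, against 50.5% of all genes. Jun, Hoxa11, and Oas1a ran against most of theirs. Fold changes were above 0 in 21 of 29 mesenchymal genes, and not above 0 in 19 of 34 Hox and 17 of 26 interferon genes. Foxq1 went with 13 of 21 primitive endoderm genes, but that list summed higher in MKOS, at 1521, 1034, and 1122.5 CPM against 790, 723, and 478 CPM. The Y-linked genes Ddx3y, Eif2s3y, and Uty were detected in all 6 libraries, and Kdm5d was 1.90, 2.05, and 1.83 CPM in MKOS against 15.1, 6.90, and 12.9 CPM in OKMS (-2.71 ± 0.94, adjusted p = 0.137). Zfy1, a Y-linked zinc finger gene with a close copy, stayed at or below 3.53 CPM throughout. Xist, the RNA that silences an X chromosome in female cells, was 41.0, 22.5, and 11.1 CPM against 10.4, 8.81, and 2.35 CPM (adjusted p = 0.2004).

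Markers of other cell types were read the same way. Among 18 trophoblast genes Phlda2 alone passed. The summed level of the trophoblast list was 422 to 599 CPM in MKOS and 205 to 254 CPM in OKMS, above the 66.5 to 141 CPM of MEFs and, in all 6 libraries, above the 115 to 166 CPM of ESCs. Of 20 epidermal genes, Gjb5, a gap junction connexin of skin and placenta, alone passed, at 43.0, 37.15, and 81.9 CPM against 7.59, 4.05, and 11.5 CPM (2.67 ± 0.61, adjusted p = 0.00963). The epidermal sum was 854 to 1166 CPM in MKOS, 577 and 786 CPM in OKMS replicates 1 and 2, and 120 CPM in OKMS replicate 3. Of 15 neural genes, Tubb3, a neuronal beta-tubulin, alone passed, at 52.4, 43.3, and 18.96 CPM against 8.12, 6.90, and 9.18 CPM (2.14 ± 0.55, adjusted p = 0.0254), while 12 of the 15 had a fold change below 0. Of 17 blood, endothelial, and muscle genes, Tie1 alone passed and is given with the largest differences. That list summed to 1838, 1039, and 193 CPM in MKOS and 392.5, 373, and 34.4 CPM in OKMS, lowest in replicate 3 of each cassette. Gjb5 missed without MKOS replicate 3 or OKMS replicates 1 or 2 (0.0589 to 0.0834), and Tubb3 without any 1 library other than MKOS replicate 3 (0.0577 to 0.137). Of 23 germline genes, 2 rose in MKOS (8.7%, against 1.38% of all genes). Piwil2, a partner of piRNAs in the germline, was 16.8, 9.29, and 25.5 CPM against 0.535, 0.476, and 1.18 CPM (4.44 ± 1.03, adjusted p = 0.0117). Stk31, a testis kinase, was 1.34, 1.89, and 1.71 CPM with no read in OKMS, at least 10.6-fold higher in pooled reads (adjusted p = 0.00455). Piwil2 missed without OKMS replicates 1 or 2 (0.0817 and 0.0730), and Stk31 without OKMS replicate 1 (0.0532).

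Some of the largest differences were close to present-or-absent, while other genes, such as Tgm2, kept reads in every library of the lower cassette. Higher in MKOS, 4930550L24Rik, an X-linked transcript, was 155, 163, and 144 CPM against 0.803, 1.67, and 0 CPM in OKMS (7.42 ± 0.79, adjusted p = 1.70e-06). Spink2, a serine protease inhibitor of the male germline, was 57.8, 56.2, and 79.8 CPM against 0.446, 0, and 0 CPM (7.88 ± 0.96, adjusted p = 3.93e-06). Khdc3, an oocyte and ESC gene of genome maintenance, was 19.3, 24.9, and 108 CPM against 0.446, 0.238, and 0 CPM (7.26 ± 0.98, adjusted p = 2.81e-05). Tgm2, tissue transglutaminase, was 192, 197, and 146 CPM against 7.94, 17.9, and 2.83 CPM (4.13 ± 0.66, adjusted p = 0.000199). These 4 kept their call under every alternative tried, but their sizes moved with single libraries. Without OKMS replicate 2, 4930550L24Rik was 8.02 and Tgm2 4.87. Khdc3 was 6.13 without MKOS replicate 3 and 8.36 without OKMS replicate 1. Spink2 was read in OKMS replicate 1 alone, so its fitted size has no meaning without that library. Slurp1, Klk11, and the endothelial list's Tie1 had no read in any OKMS library, so their folds are bounds set with 3 reads over the OKMS group. These are bounds on the pooled MKOS reads, for counting error only, and not for each MKOS library. Slurp1, a secreted Ly6-type protein of epidermis, was 108, 16.2, and 12.6 CPM, at least 322-fold higher, and at least 92.4-fold higher without MKOS replicate 1. Klk11, a kallikrein-type serine protease, was 21.9, 19.7, and 22.0 CPM, at least 140-fold higher. Tie1, an endothelial receptor kinase, was 9.83, 16.2, and 15.5 CPM, at least 89.0-fold higher (adjusted p = 0.0170). Slurp1 did not pass with DESeq2 (adjusted p = 0.361), and Tie1 did not pass there (0.159) or without OKMS replicates 1, 2, or 3 (0.0951, 0.0721, and 0.0545).

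Klk10, Mapt, AA467197, and Dlgap1 completed the 12 largest differences toward MKOS, with Phlda2 and Tbx3 given above. Klk10, a kallikrein next to Klk11 in the gene cluster, was 37.3, 36.4, and 58.1 CPM against 1.52, 0.714, and 1.41 CPM (4.99 ± 1.07, adjusted p = 0.00605, and 0.0537 without OKMS replicate 2). Mapt, which encodes the microtubule protein tau, was 28.1, 28.6, and 33.6 CPM against 1.25, 2.38, and 0 CPM (4.503 ± 0.87, adjusted p = 0.00189, and 5.15 without OKMS replicate 2). Dlgap1, a postsynaptic scaffold gene, was 20.7, 31.5, and 26.4 CPM against 2.50, 2.62, and 0 CPM (3.76 ± 1.01, adjusted p = 0.0371) and lost its call without any 1 library (0.0641 to 0.134). AA467197 was 51.8, 50.2, and 148 CPM against 5.35, 3.81, and 6.59 CPM (3.84 ± 0.87, adjusted p = 0.00943) and lost it without MKOS replicate 3 or OKMS replicates 1 or 2 (0.0582 to 0.0690), with a difference of 3.18 without MKOS replicate 3.

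Toward OKMS, the largest differences split by how OKMS replicate 3 behaved. Where MKOS had no read, 3 reads over the MKOS group set the bound on the pooled OKMS reads. It covers counting error only and is no bound for each OKMS library. In a first set OKMS replicate 3 was far below replicates 1 and 2. 1110032A04Rik was 195, 190, and 6.36 CPM in OKMS with no read in MKOS, at least 1226-fold higher (adjusted p = 0.000371). Tac2, a tachykinin neuropeptide, was 40.4, 25.0, and 2.12 CPM with no read in MKOS, at least 231-fold higher (adjusted p = 0.00343). Acsbg1, an acyl-CoA synthetase of brain and steroid tissue, was 76.1, 87.1, and 5.89 CPM against 0.335, 0, and 0.228 CPM (-8.08 ± 1.42, adjusted p = 0.000746). Shisa3, an inhibitor of Wnt and FGF receptors, was 64.3, 40.7, and 4.94 CPM against 0.782, 0.157, and 2.06 CPM (-5.24 ± 1.00, adjusted p = 0.00187). Necab1, a neuronal calcium-binding protein, was 30.5, 27.4, and 3.30 CPM against 0.893, 1.26, and 1.03 CPM (-4.36 ± 1.08, adjusted p = 0.0182). Without OKMS replicate 3 these 5 still passed, with adjusted p from 7.18e-05 (1110032A04Rik) to 0.00918 (Necab1). Necab1 missed without any 1 of the other 5 libraries (0.0656 to 0.0957). Without OKMS replicate 1 the bound was 782-fold for 1110032A04Rik and 108-fold for Tac2. Acsbg1 was -8.70 without MKOS replicate 1, and Shisa3 was -6.20 without MKOS replicate 3 and -4.59 without OKMS replicate 1.

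In a second set OKMS replicate 3 was far above the others. Spink3, a trypsin inhibitor, was 180, 125, and 1312 CPM in OKMS and 4.02, 6.45, and 3.43 CPM in MKOS (-7.03 ± 1.38, adjusted p = 0.00226). Cer1, a secreted antagonist of Nodal, BMP, and Wnt, was 34.4, 21.7, and 128 CPM with no read in MKOS, at least 416-fold higher (adjusted p = 0.0292). Car4, a membrane carbonic anhydrase, was 87.1, 34.8, and 245 CPM against 1.79, 4.25, and 3.998 CPM (-5.35 ± 1.29, adjusted p = 0.0157). Amot, a scaffold of the Hippo pathway, was 51.7, 24.8, and 161 CPM against 5.92, 3.15, and 0.571 CPM (-4.72 ± 1.15, adjusted p = 0.0162). Without OKMS replicate 3, Spink3 passed (0.01925), and Cer1 (0.0661), Car4 (0.0728), and Amot (0.0949) did not. Cer1 also missed with DESeq2 (0.0512). Cer1 and Car4 further missed without MKOS replicates 1, 2, or 3 (0.0735 to 0.115), and Amot without MKOS replicates 2 or 3 (0.0879 and 0.112). Without OKMS replicate 3 the differences were -5.14 for Spink3, -4.29 for Car4, and -3.63 for Amot, and the bound for Cer1 was 248-fold. Amot was -5.63 without MKOS replicate 1.

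Prom1, Gpx2, and Zdbf2 were closer together across the OKMS libraries. Prom1, which encodes the surface protein CD133, was 23.9, 25.2, and 24.2 CPM in OKMS and 0.558, 1.10, and 0.343 CPM in MKOS (-5.33 ± 0.78, adjusted p = 4.64e-05), 36.6-fold higher. Gpx2, a glutathione peroxidase of the gut, was 78.5, 62.4, and 43.6 CPM against 2.23, 1.10, and 5.60 CPM (-4.46 ± 0.87, adjusted p = 0.00214). Zdbf2, an imprinted growth-related gene, was 72.1, 58.1, and 36.7 CPM against 4.80, 4.72, and 2.51 CPM (-3.90 ± 0.50, adjusted p = 3.95e-06). The calls of these 3 genes held under every alternative tried, and the Gpx2 difference was -5.23 without MKOS replicate 3.

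**Figure D4:**
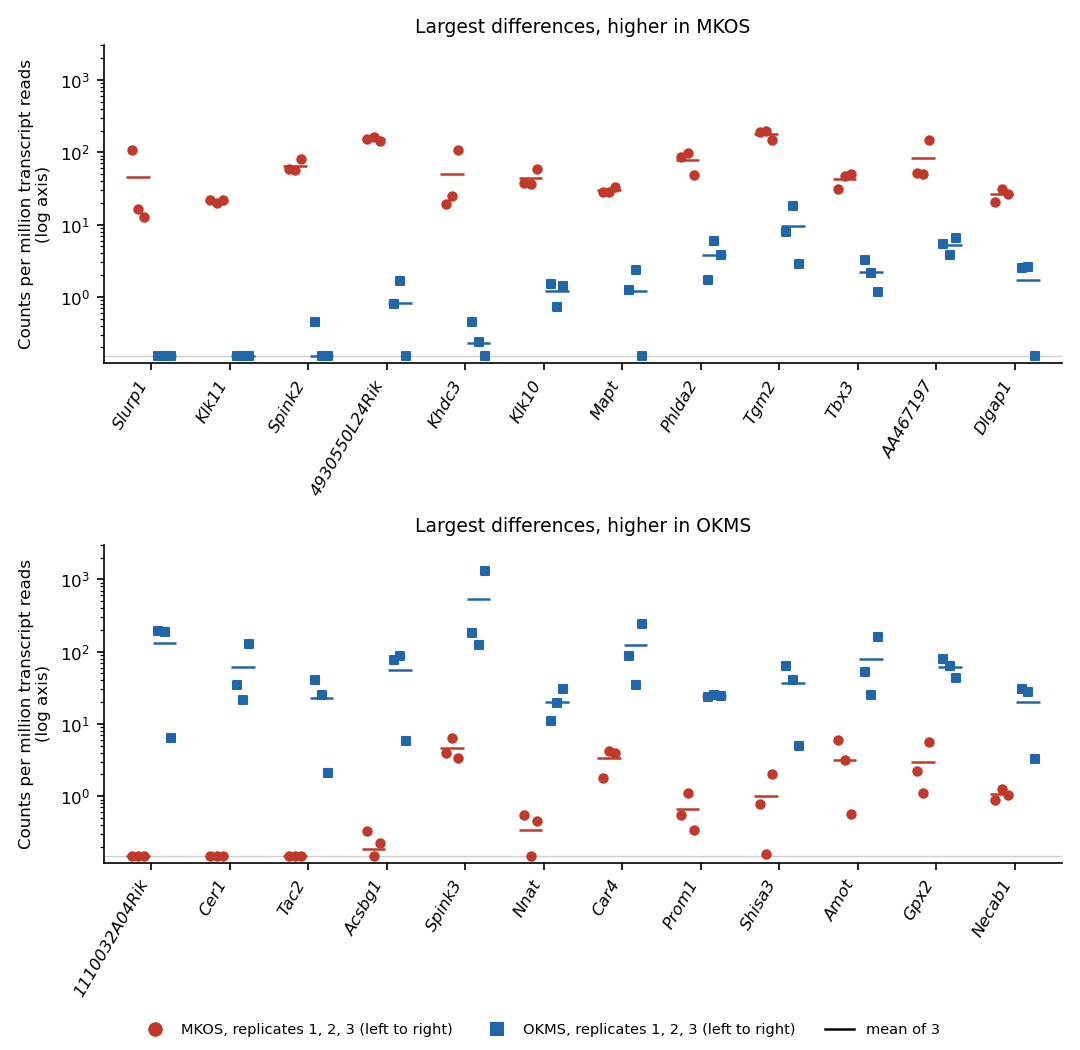
CPM (log axis) in each library of the 12 genes with the largest differences higher in MKOS (top) and higher in OKMS (bottom), with red circles for MKOS and blue squares for OKMS, replicates 1 to 3 from left to right, and the mean as a bar. Values below the gray line, including 0 reads, are drawn on it, and in the lower panel OKMS replicate 3 is the lowest OKMS point for genes such as Tac2 (2.12 CPM) and the highest for Spink3 (1312 CPM).

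Called genes were placed on the path from MEF to ESC with the 4 ESC and 4 MEF libraries. These are in neither cassette's mean, but they entered the joint fit and so its estimate of the spread. Of the 216 genes higher in MKOS, 113 were higher in ESCs than in MEFs and 55 were lower, where 26.0% and 25.0% of all genes tested did so. Of the 123 higher in OKMS, 33 were higher in ESCs and 45 lower. In all, 246 genes passed both tests, and in 158 of them, 64.2% (exact 95% binomial interval 57.9 to 70.2, counting error only and with genes taken as independent, which they are not), MKOS was on the ESC side. That share was 76.6% without MKOS replicate 1 and 75.2% without OKMS replicate 3, and it was 53.1% without MKOS replicate 3. Some called genes lay above both ends of this path. Of the 216, 48 (22.2%), and of the 123, 37 (30.1%), had a mean level in the cassette where they were higher more than 1 log2 unit above both MEFs and ESCs. Over all genes tested, 5.29% of MKOS means and 4.36% of OKMS means did so, and called genes were chosen on these means. Tgm2, at a MKOS mean of 178 CPM against 85.1 CPM in MEFs and 0.760 CPM in ESCs, and Gpx2, at an OKMS mean of 61.5 CPM against 0 and 3.73 CPM, were among them.

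The cassette difference was followed into the neighboring sorted populations. In E-CAD+ 2NG- cells, sorted as low in ICAM1, 444 genes (2.84%) were higher in MKOS and 349 (2.23%) in OKMS. The genes called in the same direction in both gates were 123 for MKOS, 56.9% of the 3NG- list and 27.7% of the 2NG- list, and 83 for OKMS, 67.5% and 23.8%. Of the 216, 1 gene, Rpl39l, was called in the opposite direction in 2NG- cells. In Nanog-GFP+ 3NG+ cells, 54 genes (0.345%) and 53 genes (0.339%) were called. Of these, 17 were shared with the 3NG- list higher in MKOS (7.9% of it, 31.5% of the 3NG+ list), and 18 with that higher in OKMS (14.6% and 34.0%). In MEFs of the lines, before reprogramming, 0 of the 216 and 3 of the 123 were called in the same direction (background 0.0256% and 0.0768%), and 2 of the 216 were called in the opposite direction. The 3 were H19, Nnat, and Mir675, a microRNA gene within H19, and the 2 were Klk8 and Phf17, all 5 named after their values were seen. Klk8 was 0 and 0 CPM in MKOS MEFs and 9.84 and 3.78 CPM in OKMS MEFs (adjusted p = 3.49e-05).

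Levels of single genes moved across the populations in different ways. Esrrb averaged 57.4 CPM in MKOS 2NG- cells, 91.1 CPM in 3NG- cells, and 119 CPM in 3NG+ cells, and in OKMS 14.3, 21.0, and 92.4 CPM. Zfp42 averaged 268, 540, and 894 CPM in MKOS and 39.3, 104, and 635 CPM in OKMS. Tgm2 ran the other way in MKOS, at 443, 178, and 34.2 CPM, and stayed at 12.4, 9.54, and 6.10 CPM in OKMS. Spink2 averaged 262, 64.6, and 16.7 CPM in MKOS and at most 0.546 CPM in OKMS. Gpx2 averaged 113, 61.5, and 32.4 CPM in OKMS and 10.8, 2.98, and 5.93 CPM in MKOS.

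**Figure D5:**
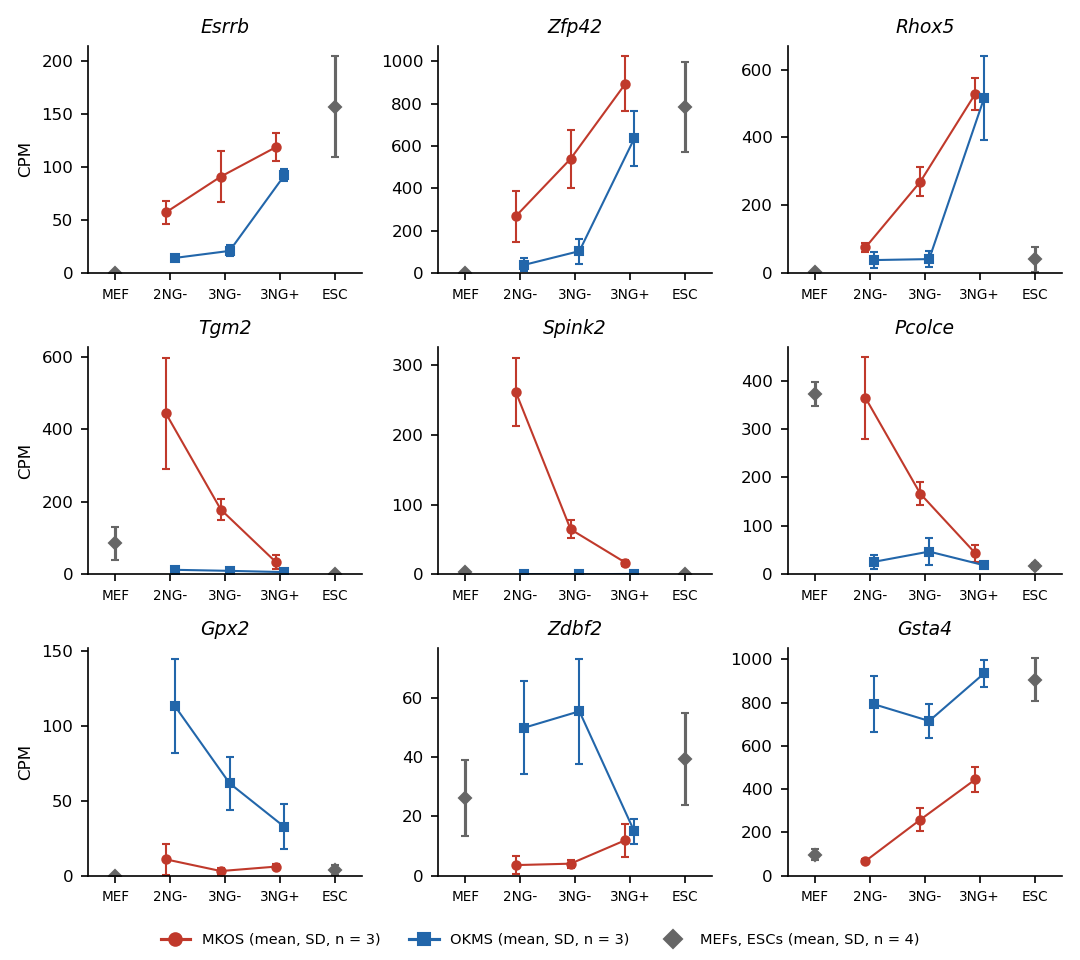
Mean CPM (linear axis from 0, error bars SD cut at 0) of 9 genes in MEFs and ESCs (gray diamonds, n = 4) and in E-CAD+ 2NG-, 3NG-, and 3NG+ cells of MKOS (red circles) and OKMS (blue squares), n = 3 each. Lines join the sorted populations of 1 cassette and are not a time course, and the cassettes are apart in 3NG- cells for each gene, such as Esrrb at 91.1 against 21.0 CPM.

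A test of the difference between gates called few genes. The cassette difference in 3NG- cells minus that in 2NG- cells passed in 3 genes toward MKOS (0.0192%) and in 0 genes toward OKMS, with edgeR's quasi-likelihood test, and 832 genes had an unadjusted p under 0.05. DESeq2 called 14. Gsta4, a glutathione transferase for lipid peroxidation products, was 229, 228, and 319 CPM in MKOS 3NG- cells and 803, 697, and 646 CPM in OKMS, while 2NG- cells averaged 67.0 and 792 CPM (interaction 2.07 ± 0.38, adjusted p = 0.0386). Rpl39l, a ribosomal protein paralog of testis, was 56.5, 83.6, and 107 CPM against 37.4, 29.8, and 29.9 CPM in 3NG- cells, and averaged 7.58 and 19.4 CPM in 2NG- cells (2.63 ± 0.50, adjusted p = 0.0386). Its order was therefore opposite in the 2 gates. Syce3, a meiotic synaptonemal complex gene, was 3.46, 2.52, and 7.65 CPM against 1.25, 1.43, and 1.18 CPM in 3NG- cells. It was not called between the cassettes there (adjusted p = 0.302). Syce3 had no read in MKOS 2NG- cells and averaged 1.77 CPM (SD 2.93, range 0 to 5.15) in OKMS 2NG- cells (interaction adjusted p = 0.0386). No gene passed without MKOS replicate 3, OKMS replicate 1, or OKMS replicate 2, and 11 passed without OKMS replicate 3.

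For the cassette difference in 3NG+ minus that in 3NG- cells, 4 genes passed, 2 toward MKOS and 2 toward OKMS (0.0128% each). Gpa33, a junctional surface glycoprotein of intestinal epithelium, was 65.2, 56.2, and 108 CPM in MKOS 3NG- cells and 9.46, 1.67, and 8.24 CPM in OKMS, and averaged 49.0 and 41.4 CPM in 3NG+ cells (-3.33 ± 0.56, adjusted p = 0.00910). Khdc3 averaged 26.7 and 14.1 CPM in 3NG+ cells (-6.37 ± 1.18, adjusted p = 0.0285). Zdbf2 averaged 11.99 and 15.0 CPM there (3.43 ± 0.67, adjusted p = 0.0316). For these 3, the large 3NG- difference was smaller in 3NG+ cells. Isyna1, the enzyme that makes inositol phosphate from glucose phosphate, did the reverse, at 39.1, 52.3, and 67.6 CPM against 70.3, 95.2, and 45.0 CPM in 3NG- cells and at means of 105 and 23.8 CPM in 3NG+ cells (2.52 ± 0.45, adjusted p = 0.0115). The count was 2 without MKOS replicates 1 or 3 or OKMS replicate 1, 1 without OKMS replicate 2, and 14 without OKMS replicate 3.

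Because reads mark 5' ends, promoters of called genes were searched for the letters GGGNGTGG, a KLF-type motif, and ATGCAAAT, the octamer that Oct4 binds, on both strands (also CCACNCCC and ATTTGCAT), in windows of 300 bases from 250 before to 50 after the RefSeq start. A window was given for 165 of the 216 genes higher in MKOS, 98 of the 123 higher in OKMS, and 11967 of all 15630. The KLF-type letters were in 29.1%, 23.5%, and 26.5% of these genes, and the octamer in 2.42%, 3.06%, and 1.80%. Neither share is a test, and the called genes lay close to all genes tested. Windows of 100 bases upstream of the start are shown to place these letters in genes described above, with the letters that match in capitals. Zfp42, Tie1, and Pcolce were higher in MKOS and hold the KLF-type letters. Meg3 and Acsbg1 were higher in OKMS. The Meg3 window holds the KLF-type letters and the Acsbg1 window the octamer, so the KLF-type letters are shown for both directions.
Zfp42: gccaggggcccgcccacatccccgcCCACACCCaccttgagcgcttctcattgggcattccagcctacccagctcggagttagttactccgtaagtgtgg
Tie1: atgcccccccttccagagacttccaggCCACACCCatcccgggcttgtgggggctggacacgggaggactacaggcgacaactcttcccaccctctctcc
Pcolce: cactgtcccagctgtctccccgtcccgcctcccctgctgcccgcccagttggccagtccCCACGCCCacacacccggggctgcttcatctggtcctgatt
Meg3: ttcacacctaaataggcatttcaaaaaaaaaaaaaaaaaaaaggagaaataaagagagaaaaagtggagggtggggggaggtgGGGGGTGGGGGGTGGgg
Acsbg1: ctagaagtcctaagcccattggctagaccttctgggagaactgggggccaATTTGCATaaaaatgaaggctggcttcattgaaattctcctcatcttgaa
These windows are on the GRCm38 build, on the plus strand for Meg3 and on the minus strand for the others, at chr8:43307010-43307109 for Zfp42, chr4:118489850-118489949 for Tie1, chr5:137611405-137611504 for Pcolce, chr12:109545298-109545397 for Meg3, and chr9:54661886-54661985 for Acsbg1. The match starts 75 bases upstream of the start in Zfp42, 73 in Tie1, 41 in Pcolce, and 50 in Acsbg1. In Meg3 the nearer of 2 overlapping matches starts 10 bases upstream, and the same window before its other RefSeq start holds none. Reads of the Zfp42 transcript at unique positions were 64.9% of its reads over the series, so its count may hold reads of near-identical sequence elsewhere. The same limit holds for Meg3 (69.0%), Ccnd3 (72.4%), Klf4 (76.5%), Dppa2 (76.8%), and Pou5f1 (87.2%), among others.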

How the data were processed

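The authors deposited raw read counts per transcript, repeat, and spike-in from 5'-end (STRT) libraries, aligned with Bowtie 0.12.7 to mm10 per the labels' processing notes. The 24264 transcript rows were used, 73.9% of their reads lay at unique positions over the series, and the 1554 repeat and 104 spike-in rows were left out. CPM is the share of a library's transcript reads, scaled to 1e6, without further scaling. Log2 fold changes and adjusted p came from edgeR 4.0.16 (TMM, filterByExpr on low counts, quasi-likelihood F test, all groups fitted together, Benjamini-Hochberg over the 15630 genes kept), with a threshold of 0.05. The alternatives were DESeq2 1.42.0, its size factors, no filter on low counts, the 6 libraries alone, a replicate block, and each library left out. On simulated counts for 14832 genes with 200 changed 4-fold, the cassette comparison called 204, of which 195 were changed ones, and the interaction called 69, of which 66 were. The simulation gave every gene the same spread, changed only genes above a set level, and held no library that stood apart. It therefore checks the fit and does not say what share of real differences was found here. Named were sorting markers, reprogramming factors, and sex-linked genes, the 12 largest differences each way (called, groups apart, at least 20 CPM in the higher cassette), up to 4 called members of each list or else the member with the smallest p, and genes called in the interactions. The members and gene lists were chosen with earlier results of these data known. The values of 1 gene that this rule names are not reported here.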

Additional observations from a re-analysis of the deposited data

Results flagged for a closer look

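The cassette difference itself differed between gates, by an interaction test in edgeR, for 7 genes, given here as log2 differences of differences. In 3NG- minus 2NG- cells, the values were 2.07 for Gsta4, 2.63 for Rpl39l, and 8.70 for Syce3. Syce3 had no read in MKOS 2NG- cells and ranged from 0 to 5.15 CPM in OKMS 2NG- libraries, so its fitted size is no bound. In 3NG+ minus 3NG- cells, the values were 3.43 for Zdbf2, 2.52 for Isyna1, -3.33 for Gpa33, and -6.37 for Khdc3. Both tests share the 6 3NG- libraries. Rpl39l was itself called between the cassettes in 3NG- cells (adjusted p = 0.0491) and lost that call without any 1 library other than MKOS replicate 1 (0.1 to 0.220).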

How the results depend on the processing

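Genes higher in MKOS numbered 534 without a filter on low counts, 102 with replicates 1 and 2 only, and 90 to 161 with 1 library left out. Genes higher in OKMS numbered 243 with DESeq2, 330 without the filter, 65 with replicates 1 and 2 only, and 46 to 110 with 1 library left out. The interaction of 3NG- with 2NG- cells called 14 genes with DESeq2, 103 without the filter, 1 with the libraries compared alone, and 0 to 11 with 1 library left out. That of 3NG+ with 3NG- cells called 22, 163, 11, and 1 to 14 genes in the same order. The share of genes with MKOS on the ESC side was 52.9% without the filter, 57.2% with the libraries alone, and 53.1% to 76.6% with 1 library left out. With a replicate block, 289 and 157 genes were higher in MKOS and OKMS, and the interactions called 9 and 6. Same-numbered MKOS and OKMS libraries correlated at 0.0891, 0.0288, and 0.131 in their deviations from group means, and OKMS replicate 2 correlated best with MKOS replicate 1 (0.0657), so the numbers were not taken as pairs. Each 3NG- library did correlate best with the same-numbered 2NG- library of its cassette (0.238, 0.104, and 0.352 in MKOS and 0.0921, 0.162, and 0.328 in OKMS), a hint from the data and not from the labels, and with the block the interaction of these gates moved from 3 to 9 genes. The distance between cassettes minus that within them was 0.0334 to 0.0574 under its alternatives.

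Direction reversed only in genes that did not pass, among the named genes. Icam1 was -0.00089 with the replicate block, -0.38 with replicates 1 and 2 only, and -0.23 to 0.74 with 1 library left out, with the sign turned without MKOS replicate 3 (-0.0062) or OKMS replicate 3. Klf4 was 0.0063 with the block and -0.34 to 0.21 with 1 library left out, turned without MKOS replicate 1 (0.056), OKMS replicate 1, or OKMS replicate 2 (0.051). With 1 library left out, Cdh1 was -0.24 to 0.026, turned without MKOS replicate 1, and Nanog was -0.023 to 1.11, turned without MKOS replicate 3. Of 957 values of named genes under alternatives, 780 kept direction and side of the threshold, 155 no longer passed, 12 newly passed, and 10 reversed. Of 624 list counts, 486 stayed within 1.5 times and 138 did not. The cause of these changes was not tested. With 3 libraries a cassette, depth of 4200870 reads at the lowest, and OKMS replicate 3 apart, differences in genes below about the 3-read floor were not detectable.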

Other observations

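The families below were taken by gene symbol after their values were seen, so their counts are descriptions. Of 30 glutathione transferases and peroxidases, which detoxify electrophiles and peroxides, 6 were higher in OKMS (20%, against 0.787% of all genes) and 1 in MKOS (3.33%, against 1.38%), with a median log2 fold change of -0.53. Mgst1, a membrane-bound member, was 39.5, 21.4, and 26.8 CPM in MKOS and 347, 354, and 53.4 CPM in OKMS (-3.20), lowest of the OKMS libraries in replicate 3. Gstm5, a cytosolic member, was 52.7, 27.7, and 25.0 CPM against 159, 160, and 114 CPM (-2.14). Mgst3 went the other way, at 198, 228, and 280 CPM in MKOS and 114, 90.0, and 77.7 CPM in OKMS (1.2), and lost its call without any 1 of the 6 libraries (adjusted p 0.0580 to 0.143).

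Tissue kallikreins, secreted serine proteases of 1 gene cluster, all had a fold change above 0 (7 of 7 tested, against 50.5% of all genes). Of these, 3 were called higher in MKOS (42.9%, against 1.38% of all genes), with a median of 2.18. Klk8 was 92.5, 102, and 67.6 CPM in MKOS and 18.1, 16.2, and 23.8 CPM in OKMS (2.06), whereas in MEFs it was called higher in OKMS. Of 12 stathmins and structural microtubule-associated proteins, 6 were called higher in MKOS (50%, against 1.38% of all genes) and the median was 2.29. Stmn2, a microtubule destabilizer of neurons, was 1077, 920, and 524 CPM in MKOS and 228, 251, and 203 CPM in OKMS (1.78). Tppp3, a tubulin polymerization-promoting gene, was 130, 142, and 85.4 CPM against 17.1, 25.0, and 12.01 CPM (2.61). The calls of Mgst1, Gstm5, Klk8, Stmn2, and Tppp3 held with any 1 library left out.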
